A study of Mus musculus with 6 samples.

Results

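The immediate early genes described here are Fos, Fosb, Jun, Junb, Jund, Ier2, Dusp1, Zfp36, Egr1 and Nr4a1, chosen by name from the platform annotation. They are 10 of the 20289 genes named on the array, and had 11 of its 45281 probes, 1 each except Junb with 2. A probe entered the test if its detection p was under 0.05 on 3 or more of the 6 arrays. This kept 9 of the 11 probes, standing for 9 of the 10 genes. The arrays measured total RNA from thymocytes sorted as CD4+CD8+ (double-positive) of mice on a C57BL/6 background, with 1 Illumina bead array per sample. The samples were 3 Flvcr-/- (replicates 1, 2 and 3) and 3 Flvcr+/+ (replicates 1, 2 and 3). Flvcr1 encodes a heme exporter, and the comparison asks how loss of the gene affects transcripts of these cells. The sources used here give neither the way and cell type in which the gene was deleted, nor the age of the mice, nor any pooling. Since separate animals per sample are not stated, a p-value covers only the spread among these samples, and that spread may in part be technical.

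Immediate early genes are transcribed within minutes of a stimulus from factors already present in the cell, without new protein synthesis, and their transcripts are short-lived. FOS and JUN family proteins pair through leucine zippers to form the transcription factor AP-1. In double-positive thymocytes, signals of the T cell receptor induce EGR1 and NR4A1, which take part in positive and negative selection. Immediate early transcripts are also known to be induced by stress, including that of tissue dissociation.

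Between 15307 and 15792 probes (33.8% to 34.9%) were detected per array, and 15448 were kept. The Flvcr1 probe read 9.91, 10.45 and 10.12 in Flvcr-/- cells, against 11.002, 11.27 and 10.92 in Flvcr+/+ cells, on the log2 scale of background-corrected intensity used throughout. It had a log2 fold change (Flvcr-/- minus Flvcr+/+) of -0.91 (SE 0.157, limma adjusted p = 0.0315). The sources used here do not place its target inside or outside the deletion. Of 13 double-positive markers 11 were on the array under their symbol and 9 were kept, Cd4, Cd8b1, Rag1 and Rag2 among them. Cd8a, Ccr9 and Tcf7 had no detected probe. Here and below, a gene with no detected probe may lack a probe altogether. Xist, the RNA that silences an X chromosome in female cells, was high on Flvcr-/- replicates 2 and 3 (9.98 and 9.80) and Flvcr+/+ replicates 1 and 2 (9.55 and 9.49). It was low on Flvcr-/- replicate 1 (4.72) and Flvcr+/+ replicate 3 (4.72), where the Y-linked Eif2s3y was high (9.99 and 10.11). Each genotype thus held 1 array of a male pattern, so its 3 arrays did not all come from 1 animal. Whether arrays of the same Xist pattern did is not stated.

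Promoter sequences are shown for Fos, Dusp1, Junb and Jun, which all peaked on Flvcr+/+ replicate 1, and for Zfp36, whose values varied far less. Each is the 250 bases before the annotated start (RefSeq, build GRCm38.p6), 5′ to 3′ on the gene's strand, with the matches found by motif search in capitals.
Fos, chr12:85473640-85473889, plus strand: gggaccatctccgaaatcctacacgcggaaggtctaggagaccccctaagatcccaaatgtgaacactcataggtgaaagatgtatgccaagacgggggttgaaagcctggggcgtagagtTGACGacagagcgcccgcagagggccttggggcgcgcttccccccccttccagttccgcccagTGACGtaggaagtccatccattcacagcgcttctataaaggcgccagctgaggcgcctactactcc
Dusp1, chr17:26508473-26508722, minus strand: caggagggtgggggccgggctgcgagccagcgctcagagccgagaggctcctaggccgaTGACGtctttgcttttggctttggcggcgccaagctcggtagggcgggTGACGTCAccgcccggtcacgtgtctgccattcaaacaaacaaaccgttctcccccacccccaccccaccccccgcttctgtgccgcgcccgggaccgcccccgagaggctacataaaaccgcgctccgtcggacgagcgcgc
Junb, chr8:84978749-84978998, minus strand: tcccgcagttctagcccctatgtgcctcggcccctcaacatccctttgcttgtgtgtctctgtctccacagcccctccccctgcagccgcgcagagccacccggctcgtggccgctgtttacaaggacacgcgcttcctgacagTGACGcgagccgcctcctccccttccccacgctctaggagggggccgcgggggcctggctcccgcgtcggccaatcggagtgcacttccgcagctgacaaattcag
Jun, chr4:95052223-95052472, minus strand: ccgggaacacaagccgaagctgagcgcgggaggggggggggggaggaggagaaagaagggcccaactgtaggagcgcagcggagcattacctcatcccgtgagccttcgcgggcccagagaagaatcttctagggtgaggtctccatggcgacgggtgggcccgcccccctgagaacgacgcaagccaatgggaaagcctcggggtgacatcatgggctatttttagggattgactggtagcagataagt
Zfp36, chr7:28379229-28379478, minus strand: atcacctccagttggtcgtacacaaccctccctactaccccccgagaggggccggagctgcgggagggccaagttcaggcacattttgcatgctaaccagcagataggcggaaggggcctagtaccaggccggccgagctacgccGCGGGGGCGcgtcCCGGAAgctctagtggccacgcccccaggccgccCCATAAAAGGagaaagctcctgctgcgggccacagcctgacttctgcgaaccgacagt

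The search covered both strands for the cyclic AMP response element TGACGTCA, its core TGACG, which lies within it, the AP-1 site TGANTCA, the EGR site GCGNGGGCG, the ETS core CCGGAA and the CArG box of serum response factor. Of the 10 genes, 8 had a window, and Ier2 and Egr1 had none in the table. The core TGACG was found in 5 of these 8 windows, against 17.8% of all 32851 windows of the same length. Fos held it at bases -129 and -66 relative to the start, Junb at -106 and Fosb at -60. Dusp1, with matches starting at -191, -143 and -140, was the 1 member with the full element TGACGTCA, which 1.55% of all windows held. Jun and Jund held no match. The EGR site was found in Fosb, Nr4a1 and Zfp36 (4.70% of all windows), the ETS core in Zfp36 and Nr4a1 (12%), the CArG box in Zfp36 alone (1.47%) and the AP-1 site in 0 of the 8 (6.75%). A match describes these letters only, and its absence says nothing of the rest of the gene.

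No immediate early gene passed the test between genotypes. Of 9 tested probes, 0 reached an adjusted p of 0.05 in the limma fit over all kept probes, where 26 of 15448 probes (0.168%) did. At an unadjusted p under 0.05, 1 member was lower in Flvcr-/- cells, Fos, against 2.1% of all kept probes. Of the 9, 7 read lower and 2 higher, where 49.4% of all kept probes read lower. The 7 include Fosb, which was kept through the Flvcr+/+ arrays alone, so that the filter set its direction. The median log2 fold change of the 9 was -0.46, against 0.00303 for all kept probes. That median is the value of Fosb, a gene near background, and it was -0.15 on the deposited log2 values and -0.05 without Flvcr+/+ replicate 1. The members differed widely in how much they varied, and are described below by their roles. Fold changes are on a scale with an offset of 16, which understates those of dim probes.

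**Figure D1:**
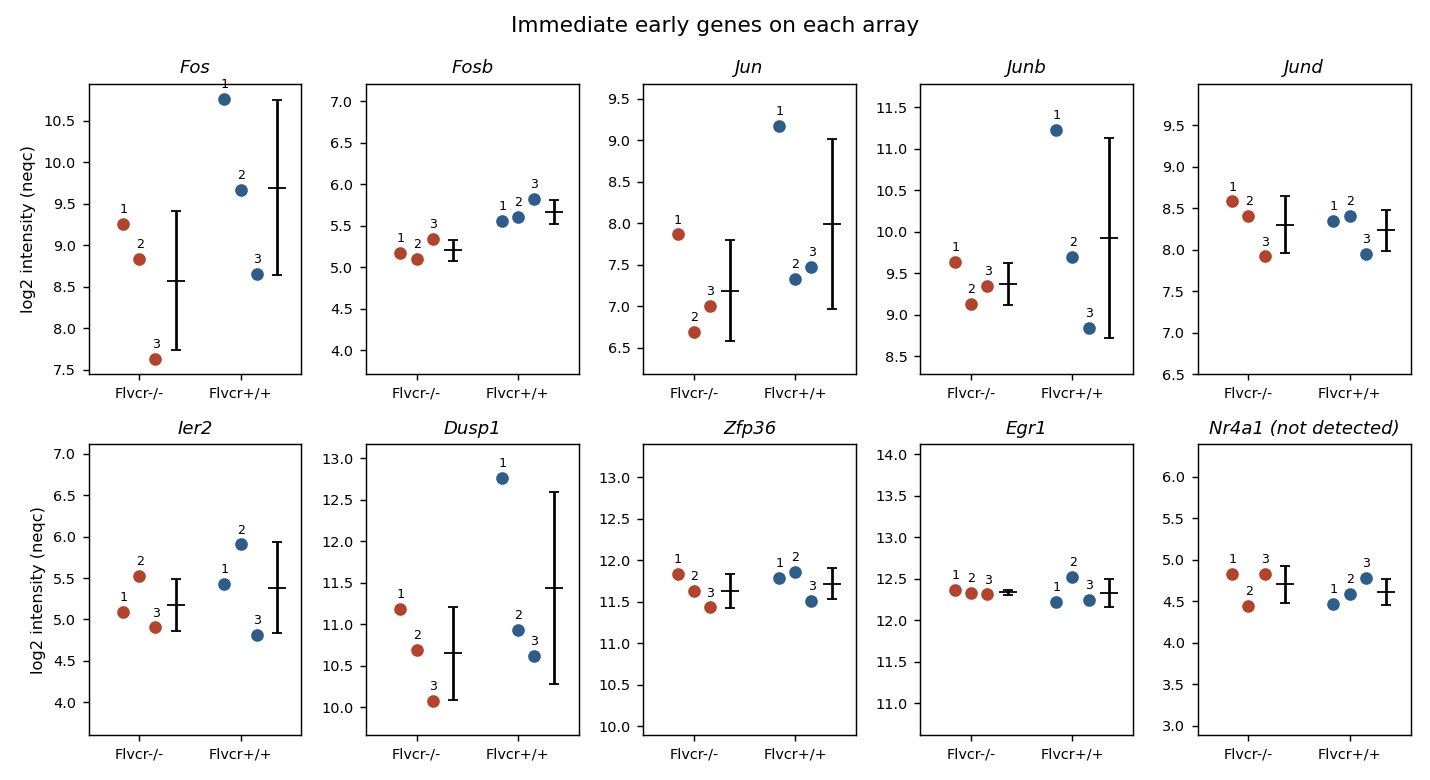
Values of the 9 tested genes and of Nr4a1 on each array (y axis, log2 background-corrected intensity, every panel spanning the same range), Flvcr-/- left and Flvcr+/+ right, with replicate numbers at the points and bars for the mean and SD of 3 arrays. Flvcr+/+ replicate 1 stands above the other 5 arrays for Fos, Jun, Junb and Dusp1, whereas Egr1, Zfp36 and Jund lie close together in both genotypes.

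Fos, the FOS family member whose protein pairs with JUN proteins, read 9.26, 8.84 and 7.64 on Flvcr-/- replicates 1, 2 and 3, against 10.76, 9.67 and 8.66 on Flvcr+/+ replicates 1, 2 and 3. The groups overlapped, since Flvcr+/+ replicate 3 lay below Flvcr-/- replicates 1 and 2. In the deposited intensities, before any scaling, the same probe gave 696.1, 545.5 and 331.5 in Flvcr-/- cells and 1912.5, 1017.3 and 458.5 in Flvcr+/+ cells. Fos averaged 8.58 ± 0.84 in Flvcr-/- and 9.69 ± 1.05 in Flvcr+/+ cells (SD, n = 3 each). Its log2 fold change was -1.12 (SE 0.433, 95% interval -2.04 to -0.19), or 2.17-fold lower in Flvcr-/- cells. The unadjusted p of limma was 0.0212 and the adjusted p 0.9997. Without Flvcr+/+ replicate 1 the log2 fold change was -0.58, and without Flvcr-/- replicate 3 it was -0.65. With array weights it was -1.92 and passed (limma adjusted p = 0.0496). The weights were highest for Flvcr+/+ replicate 1 (2.29) and Flvcr-/- replicate 3 (1.85), the arrays with the highest and the lowest Fos value.

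Fosb, a second FOS family member, lay near background. It was detected on 0 of 3 Flvcr-/- and 3 of 3 Flvcr+/+ arrays, and so was kept only through the Flvcr+/+ arrays. Its values were 5.17, 5.10 and 5.34 in Flvcr-/- cells and 5.55, 5.61 and 5.82 in Flvcr+/+ cells. Fosb was the 1 member of 9 whose groups did not overlap, against 4.46% of kept probes in this direction. Since the filter kept it through the Flvcr+/+ arrays alone, it had to read lower in Flvcr-/- cells, and nothing is read from that count. Set against the lowest detected signal, its mean was at least 1.19-fold lower in Flvcr-/- cells, a bound on this scale only that takes no account of spread. The 95% interval of its log2 fold change ran from -1.04 to 0.12 (limma adjusted p = 0.9997).

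Among the JUN family, Jun varied strongly between arrays of both genotypes and Junb only between those of Flvcr+/+ cells. The SD of Jund was 0.34 in Flvcr-/- and 0.25 in Flvcr+/+ cells, against 0.25 and 1.20 for Junb. Jun, the main partner of FOS, read 7.87, 6.69 and 7.002 in Flvcr-/- cells, against 9.17, 7.34 and 7.48 in Flvcr+/+ cells. Flvcr-/- replicate 1 exceeded Flvcr+/+ replicates 2 and 3. The log2 fold change of Jun was -0.81 (SE 0.403, limma adjusted p = 0.9997), and -0.22 without Flvcr+/+ replicate 1. Junb, an AP-1 subunit that can restrain JUN, read 9.63, 9.13 and 9.34 in Flvcr-/- cells and 11.22, 9.70 and 8.85 in Flvcr+/+ cells, so that Flvcr+/+ cells held both the highest and the lowest array. Its log2 fold change was -0.55 (SE 0.397), with Flvcr+/+ replicate 1 deciding the sign, since without that array it was 0.10. The other Junb probe was detected on 0 arrays, with detection p of 0.427 to 0.740 in Flvcr-/- and 0.185 to 0.535 in Flvcr+/+ cells. Jund, the subunit commonly present in resting cells, read 8.58, 8.40 and 7.92 in Flvcr-/- cells, against 8.34, 8.41 and 7.95 in Flvcr+/+ cells, with ranges that overlapped almost entirely. Its log2 fold change was 0.07 (95% interval -0.38 to 0.52).

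Of the 2 members that encode feedback inhibitors, Dusp1 varied between arrays as widely as Fos and Zfp36 far less. Dusp1, a phosphatase that inactivates MAP kinases, read 11.19, 10.69 and 10.07 in Flvcr-/- cells and 12.76, 10.93 and 10.62 in Flvcr+/+ cells. Flvcr+/+ replicate 1 stood 1.57 above Flvcr-/- replicate 1, the next highest, and the other arrays overlapped. The log2 fold change of Dusp1 was -0.79 (SE 0.405, limma adjusted p = 0.9997), and -0.12 without Flvcr+/+ replicate 1. Zfp36 encodes tristetraprolin, which binds AU-rich elements and speeds the decay of short-lived mRNAs. It read 11.84, 11.63 and 11.43 in Flvcr-/- cells, against 11.79, 11.86 and 11.51 in Flvcr+/+ cells, a log2 fold change of -0.09 (95% interval -0.38 to 0.20).

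Ier2, an early response gene of a nuclear protein, was close to the detection limit, with 1 Flvcr-/- and 2 Flvcr+/+ arrays detected. Its values were 5.09, 5.52 and 4.90 in Flvcr-/- cells and 5.43, 5.90 and 4.82 in Flvcr+/+ cells. They overlapped, with a log2 fold change of -0.21 (95% interval -0.92 to 0.50).

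Egr1 and Nr4a1, the members tied most closely to receptor signalling in thymocytes, gave 1 level gene and 1 that was not measured. Egr1, a zinc-finger transcription factor, read 12.36, 12.33 and 12.31 in Flvcr-/- cells, against 12.22, 12.52 and 12.24 in Flvcr+/+ cells. The Flvcr-/- values lay inside the Flvcr+/+ range, and the log2 fold change was 0.01 (95% interval -0.23 to 0.25). Nr4a1, an orphan nuclear receptor also called Nur77, was detected on 0 of 6 arrays and was not tested. Its detection p was 0.318, 0.960 and 0.295 in Flvcr-/- and 0.936, 0.728 and 0.377 in Flvcr+/+ cells. Cd8a also had no detected probe on any array, although the cells were sorted on CD8.

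**Figure D2:**
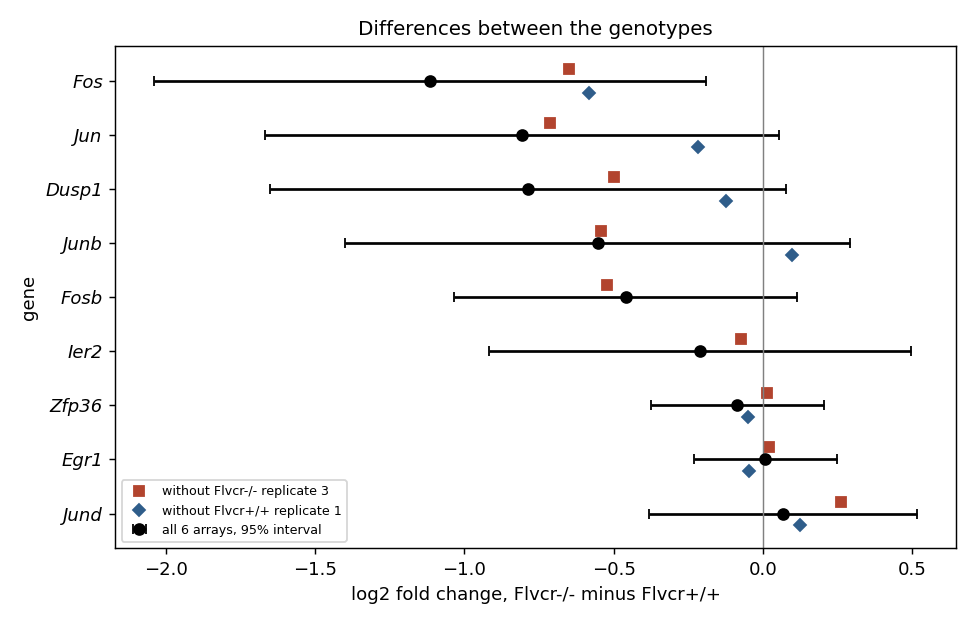
Log2 fold change (x axis, Flvcr-/- minus Flvcr+/+) of the 9 tested genes (y axis), with circles and bars for the estimate from all 6 arrays and its 95% interval, squares for the estimate without Flvcr-/- replicate 3 and diamonds for that without Flvcr+/+ replicate 1. Fos lies at -1.12 with all arrays and at -0.58 without Flvcr+/+ replicate 1, and Junb crosses 0 without that array. Fosb and Ier2 were not kept without it.

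The spread between arrays of the same genotype was itself unusual for 4 members. In Flvcr+/+ cells the SD of Junb was 1.20, of Dusp1 1.16, of Fos 1.05 and of Jun 1.02, against a median of 0.21 over all kept probes. Between 99.8% and 99.9% of kept probes had a smaller SD in Flvcr+/+ cells than each of these 4. In Flvcr-/- cells the SD of Fos was 0.84, above that of 99.5% of kept probes, while those of Jun (0.61) and Dusp1 (0.56) exceeded 97.5% and 96.2% of them. Junb, with an SD of 0.25 in Flvcr-/- cells, exceeded 62.7%. Egr1 lay at the other end, since its SD of 0.03 in Flvcr-/- cells was larger than that of only 1.39% of kept probes, and its SD in Flvcr+/+ cells was 0.17. Expressed as fold between the highest and the lowest array, Junb spanned 1.42-fold within Flvcr-/- and 5.20-fold within Flvcr+/+ cells. Fos spanned 3.07-fold within Flvcr-/- and 4.31-fold within Flvcr+/+ cells, both wider than its 2.17-fold difference between the genotypes.

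**Figure D3:**
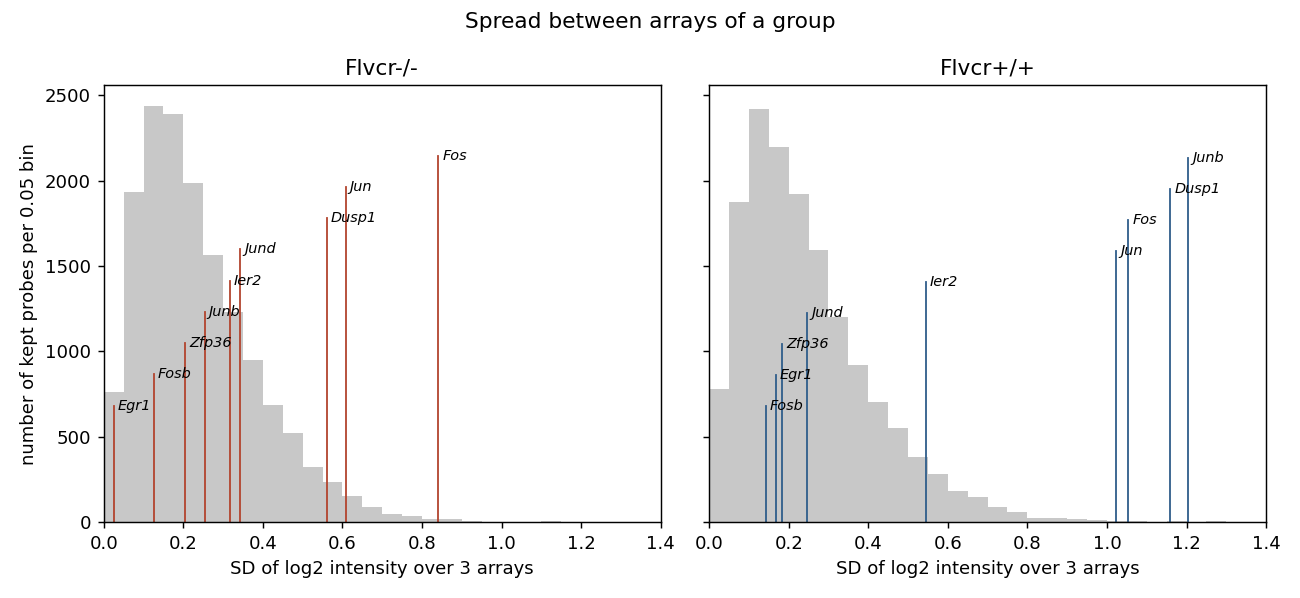
SD of log2 intensity over the 3 arrays of Flvcr-/- (left) and Flvcr+/+ (right) on the x axis, with grey bars for the number of kept probes per bin on the y axis and lines for the 9 tested genes, whose heights carry no value. Junb, Dusp1, Fos and Jun lie above 1 in Flvcr+/+ cells, and Fos is highest in Flvcr-/- cells at 0.84.

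Likeness to Fos was measured as the root mean square difference between log2 values, each probe centred on its mean over the 6 arrays. Of the 15447 other kept probes, that of Dusp1 was nearest to Fos, at 0.345, against a median of 0.979. The probe of Junb ranked 16 (0.552) and that of Jun 25 (0.572). Fos, Dusp1, Junb and Jun all peaked on Flvcr+/+ replicate 1. Their lowest arrays were Flvcr-/- replicate 3 for Fos and Dusp1, Flvcr-/- replicate 2 for Jun and Flvcr+/+ replicate 3 for Junb. A probe that did not vary at all would lie at 0.958, so the measure depends on the size of the swings as well as their shape. Ier2 (0.7999, rank 755), Jund (0.830, rank 1190) and Zfp36 (0.832, rank 1231) lay below that value, Fosb (0.938, rank 5182) just below it and Egr1 (0.964, rank 6733) just above. The 5 nearest named genes outside the list were Kcnmb4, a subunit of a potassium channel (0.408), Id2, an inhibitor of E-proteins (0.431), Tnip2, a binding partner of the ubiquitin-editing enzyme A20 (0.507), Tnfaip3, which encodes A20 (0.511), and Igf1r, a growth factor receptor (0.513). Tnfaip3 read 10.01, 9.89 and 9.63 in Flvcr-/- cells and 11.29, 10.20 and 9.31 in Flvcr+/+ cells. These ranks describe 6 arrays of both genotypes and carry no test.

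A wider list of 42 early response genes had 40 on the array, of which 26 had a kept probe. None passed (limma, 0 of 37 probes), while at an unadjusted p under 0.05 there were 3 probes lower, against 2.1% of all kept probes, and 1 higher, against 2.33%. The lists that follow are to be read against the same shares. The median log2 fold change of the 37 probes was -0.18. Taking the brightest probe of each gene, 20 of the 26 read lower and 6 higher. The smallest p of the list was that of a Dusp4 probe, for another MAP kinase phosphatase. It read 6.01, 5.47 and 5.52 in Flvcr-/- cells, against 7.16, 6.41 and 6.70 in Flvcr+/+ cells, without overlap. Its log2 fold change was -1.09 (SE 0.272, limma adjusted p = 0.333), and with array weights -1.30, which passed (adjusted p = 0.0288). The brighter Dusp4 probe read -0.39 (limma adjusted p = 0.9997).

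Sgk1, a serum- and glucocorticoid-induced kinase, had a log2 fold change of -0.46 (SE 0.169) with groups that did not overlap, and Klf2, a transcription factor of mature T cells, stood at -0.67 (SE 0.300). Trib1, a pseudokinase, was detected on 3 Flvcr-/- and 0 Flvcr+/+ arrays. Its mean was at least 1.21-fold higher in Flvcr-/- cells, a bound on this scale that takes no account of spread. The Trib1 probe was kept through the Flvcr-/- arrays alone, so that the filter set its direction, and it is the 1 higher probe counted above. None of these passed (limma adjusted p = 0.9997 for each). The EGR family members Egr2 and Egr3 resembled Egr1 more than Fos, with their highest value on Flvcr+/+ replicate 2 and log2 fold changes of -0.04 and -0.20. Nr4a2, of the NR4A family, read 5.31, 5.11 and 5.51 in Flvcr-/- and 5.77, 5.52 and 5.19 in Flvcr+/+ cells, near background. Nr4a3, Fosl1, Fosl2, Egr4 and Atf3 had no detected probe on any array.

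The array on which a gene peaked was more often Flvcr+/+ replicate 1 among early response genes than among all kept probes. It was the highest array for 4 of the 9 tested members (44.4%) and for 14 of the 26 further genes (53.8%), against 13.3% of all kept probes, a description of this 1 array with no test. Ppp1r15a, which encodes a stress-induced phosphatase subunit, read 9.90 there and between 7.76 and 8.61 on Flvcr-/- arrays, with 8.47 and 7.78 on the other Flvcr+/+ arrays. Per1, a clock gene with an immediate early response, read 8.46 there, with 7.28 to 7.60 on the Flvcr-/- arrays and 7.44 to 7.45 on the other Flvcr+/+ arrays. Flvcr-/- replicate 3 was the lowest array for 4 members, Fos among them.

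**Figure D4:**
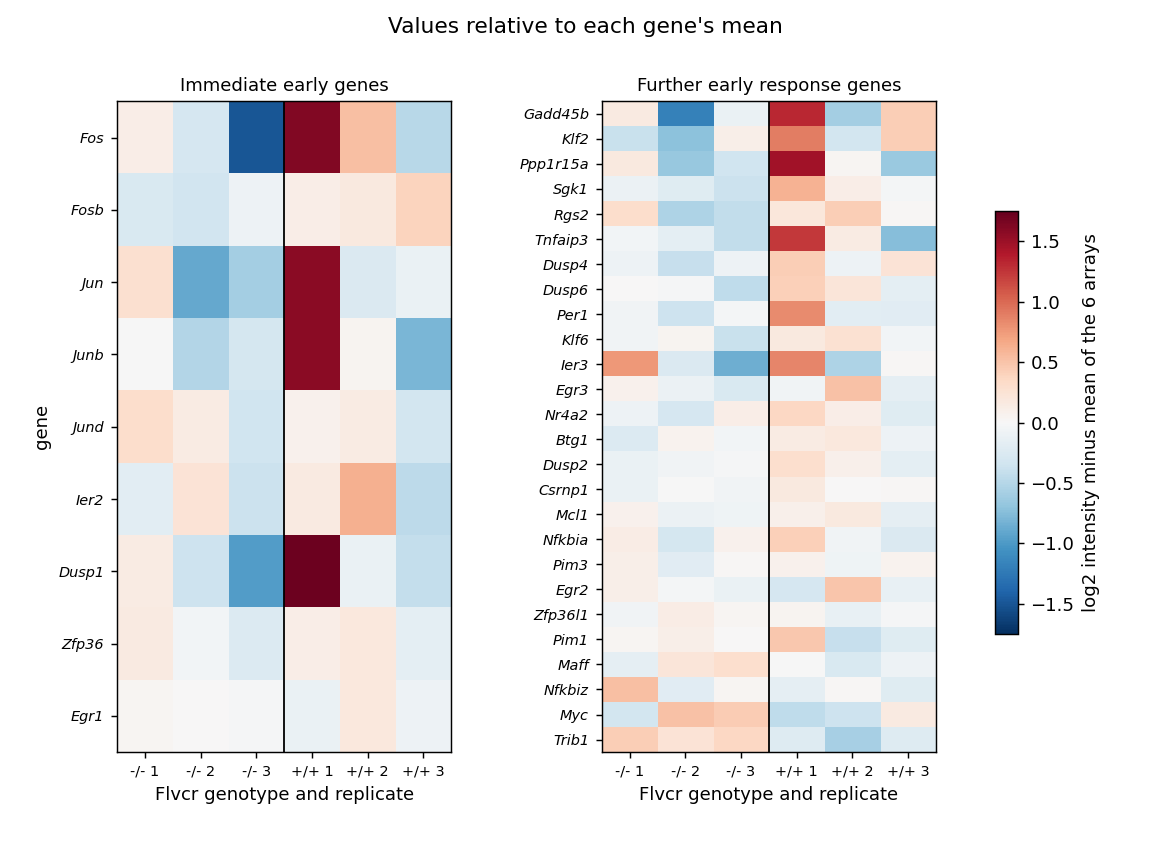
Values of the 9 tested members (left) and 26 further early response genes (right, by log2 fold change) on each array, as log2 intensity minus the gene's mean over the 6 arrays, with columns for Flvcr-/- and then Flvcr+/+ replicates and red above the mean. Flvcr+/+ replicate 1 is the darkest red column, where Fos stands 1.63 and Dusp1 1.72 above their means.

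Genes that act upstream gave no call either. Of 31 inducers of immediate early transcription 26 were on the array and 20 were kept. They had 0 of 42 probes past the threshold and a median log2 fold change of -0.05. At an unadjusted p under 0.05 there were 0 lower and 1 higher. Srf, the serum response factor that binds the CArG box, read 10.59, 10.76 and 10.62 in Flvcr-/- cells and 10.32, 10.45 and 10.22 in Flvcr+/+ cells. The groups did not overlap, and its log2 fold change was 0.33 (SE 0.132, limma adjusted p = 0.9997). Mapk9, a JUN N-terminal kinase, stood at 0.45 on the probe with the smallest p and at 0.14 and -0.05 on its other probes. Crem, a repressor and activator of cyclic AMP responses, stood at 0.45, with its other probes at -0.04 and -0.27. Rps6ka5, a kinase of CREB, stood at -0.255, and none of these passed. Among 20 partners and repressors 19 were on the array and 14 were kept. They had 0 of 25 probes past the threshold, 0 lower and 1 higher at an unadjusted p under 0.05, and a median of -0.02. Batf, an AP-1 subunit of lymphocytes, read 8.08, 7.58 and 7.72 in Flvcr-/- and 7.41, 7.29 and 7.36 in Flvcr+/+ cells (log2 fold change 0.44, SE 0.201, limma adjusted p = 0.9997). Dusp10, a MAP kinase phosphatase, stood at -0.39 and -0.21 on its probes, and Bach2, a repressor at AP-1 sites, at -0.31. Atf2, a partner of JUN, stood at -0.43 and -0.32 on its dimmer probes and at 0.18 on its brightest, and none passed.

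Responses to receptor signals and heat shock genes also gave no call. Of 16 receptor response genes 15 were on the array and 11 were kept. They had 0 of 20 probes past the threshold, and 0 lower and 1 higher at an unadjusted p under 0.05. Their median log2 fold change was 0.01. Cd69, an early activation antigen, read 10.66, 10.45 and 10.48 in Flvcr-/- and 10.92, 11.03 and 10.41 in Flvcr+/+ cells. Rasgrp1, which couples the receptor to RAS, stood at 0.98 on a dim probe (SE 0.312, limma adjusted p = 0.855) and at 0.14 and 0.25 on others. Bcl2l11, a pro-apoptotic gene of negative selection, stood at -0.24 on its brightest probe and within 0.004 of 0 on its other 2 probes. Itm2a, a gene of positive selection, stood at -0.19, and neither passed. Of 12 heat shock genes 9 were on the array and 7 were kept. They had 0 of 11 probes past the threshold by limma, 0 at an unadjusted p under 0.05, and a median of -0.05. Dnajb1, a cochaperone, read 13.35, 13.29 and 13.30 in Flvcr-/- and 13.14, 13.27 and 13.19 in Flvcr+/+ cells, a log2 fold change of 0.11. Hspe1, Hspd1 and Dnaja1 stood at 0.19, 0.18 and -0.28. The mean of the heat shock genes was 10.33, 10.79 and 10.52 in Flvcr-/- and 10.70, 10.80 and 10.29 in Flvcr+/+ cells. Hsph1, a large chaperone, read 9.61, 10.90 and 10.06 in Flvcr-/- and 10.86, 11.26 and 9.23 in Flvcr+/+ cells, and was highest on Flvcr+/+ replicate 2. It spanned 2.44-fold within Flvcr-/- and 4.08-fold within Flvcr+/+ cells, and its SD in Flvcr+/+ cells exceeded that of 99.8% of kept probes.

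Markers of mature single-positive T cells read lower in Flvcr-/- cells alongside these genes. Of 6 such markers 5 were on the array and 4 were kept. All 5 kept probes read lower, with 0 past the adjusted threshold (limma) and 4 at an unadjusted p under 0.05. Il7r, not among those 4, was kept through the Flvcr+/+ arrays alone, so that the filter set its direction. Cd52 gave 2 of the 5 probes. S1pr1 had no detected probe. Their summed level ran from 11780 to 19316 in Flvcr-/- and from 17322 to 18742 in Flvcr+/+ cells, and their mean log2 value was 7.92, 7.62 and 7.87 in Flvcr-/-, against 8.45, 8.09 and 8.47 in Flvcr+/+ cells. Klf2 stands in both this list and that of early response genes. Of 10 dendritic cell and macrophage markers 5 were kept, with Itgax and Adgre1 not detected. Cd74 stood at -1.13 on its brighter probe and H2-Eb1 at -0.66. H2-Ab1 stood at -0.10, -0.13 and -0.07 on its probes, Cst3 at -0.07 and Lyz2 at 0.045. The summed levels of the 5 were 6050 to 6305 in Flvcr-/- and 6219 to 7109 in Flvcr+/+ cells. Of 5 B cell markers 3 were on the array and 2 were kept, Cd79b and Igkc, while Cd79a and Ms4a1 had no detected probe. Cd79b did not read lower, with log2 fold changes of 0.26 and 0.03 on its 2 probes. The Igkc probe read 8.03, 8.77 and 8.50 in Flvcr-/-, against 12.20, 11.62 and 11.57 in Flvcr+/+ cells (log2 fold change -3.36, SE 0.202, limma adjusted p = 5.1e-07). Nkg7, the 1 of 5 natural killer markers kept, and that through the Flvcr+/+ arrays alone, stood at -1.06 (limma adjusted p = 0.855). Of 7 erythroid genes 3 were on the array and 2 were kept, both globins. Their mean log2 value was 7.82, 12.10 and 12.43 in Flvcr-/- and 12.02, 10.13 and 10.33 in Flvcr+/+ cells, with Flvcr-/- replicate 1 far below the other arrays. The part of these cells in the values of the immediate early genes was not tested. Fewer cells of a type and less RNA per cell cannot be told apart in such samples.

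The genotype difference of several members ran in opposite directions on arrays of high and low Xist, a comparison made after the data were seen. On the high-Xist arrays Fos read 8.84 and 7.64 in Flvcr-/- cells, against 10.76 and 9.67 in Flvcr+/+ cells. On the low-Xist arrays it read 9.26 in Flvcr-/- and 8.66 in Flvcr+/+ cells. Fos, Jun, Junb, Dusp1 and Zfp36, 5 of 9 members, were lower in Flvcr-/- cells without overlap on the high-Xist arrays and higher on the low-Xist arrays, which held for 12.2% of kept probes. For Fos the difference was -1.98 on the high-Xist arrays and 0.60 on the low-Xist arrays, given here as a description with no test. The low-Xist arrays were 1 per genotype and the split was prompted by the values, so that Xist pattern and single sample cannot be told apart.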

How the data were processed

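Total RNA of 6 samples was hybridised to Illumina bead arrays, and samples were grouped by their titles. The deposited table of intensities held probe intensity on a linear scale, not scaled between arrays (medians 126.1 to 149.1) and a detection p-value per probe and array, per the file headers. A second deposited table held log2 values. Lumi is named, with no version, per the submitters' processing notes. Quantile normalization of the intensities followed by log2 gave the deposited log2 values within 5e-09, without background correction or centring, and each array's median was 7.09. The sources used here do not name the software behind the intensities.

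Probe symbols came from the platform annotation (35784 of 45281 probes with 1 symbol, 0 with several, the rest with none), updated through the RefSeq table of GRCm38.p6. In R 4.3.3, the neqc function (limma 3.58.1) background-corrected and normalized the intensities (offset 16, negative controls inferred from detection p, quantile normalization). The 15448 probes detected (p under 0.05) on 3 or more arrays were fitted with lmFit and eBayes using a variance trend, and the 2-sided p-values were adjusted over all of them by Benjamini-Hochberg. Where 1 genotype was not detected, its level per array was set to the array's lowest detected signal or to the measured one, whichever was larger. The result is a bound on the fold between means, with no account of spread. The number of arrays limits precision.

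The members and lists were chosen with earlier results of these data known. Named were all members, list genes past the threshold or else the 4 with the smallest p, and the 5 probes nearest to Fos. Ppp1r15a, Per1, Egr2, Egr3, Nr4a2, Hsph1, Igkc, Nkg7, the globins and the genes with no detected probe were named after their values were seen. Summed levels add the background-corrected signal of each gene's brightest kept probe. Alternatives are given in the closing section. With no chip given, no block for it was run, and protein sequences were not used here. The procedure was tested on simulated data, where it called 25.4% of 1.5-fold, 65.7% of 2-fold and 98.5% of 4-fold changes. The simulated spread was capped below that of Fos, Jun, Junb and Dusp1, so these shares do not carry over to them. Figures were drawn with matplotlib 3.10.9.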

Additional observations from a re-analysis of the deposited data

Results flagged for a closer look

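Arrays of high Xist (Flvcr-/- replicates 2 and 3, Flvcr+/+ replicates 1 and 2) and of low Xist (Flvcr-/- replicate 1, Flvcr+/+ replicate 3) moved in opposite directions for 5 members. On the high-Xist arrays, every Flvcr-/- value lay below every Flvcr+/+ value, by a mean log2 difference of -1.98 for Fos, -1.41 for Jun, -1.23 for Junb, -1.47 for Dusp1 and -0.29 for Zfp36. On the low-Xist arrays the Flvcr-/- array was higher, by 0.60 for Fos, 0.39 for Jun, 0.79 for Junb, 0.57 for Dusp1 and 0.33 for Zfp36. This held for 5 of the 9 tested members, and for 12.2% of all kept probes. No test of the difference is given, since the split was chosen after the values were seen and the low-Xist comparison rests on 1 array per genotype.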

How the results depend on the processing

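No member passed in the main setting, and the count of members past an adjusted p of 0.05 in limma stayed 0 under the alternatives apart from array weights (1 member) and the replicate block (1 member). That member was Fos, with a log2 fold change of -1.92 (adjusted p = 0.0496) with array weights and -1.12 (adjusted p = 0.0206) with the replicate block. Deviations of same-numbered arrays from their group means correlated at -0.149, 0.0928 and 0.109, and 4 of 6 arrays correlated best with their own number. Not every pair exceeded 0.1, so the numbers were not taken to pair samples, and whether they mark a shared day or litter is not stated. The block left the count over all kept probes at 25, against 26 in the main setting. Over all kept probes the count was 51 with array weights, 6 with no variance trend, and 6 to 24 with 1 array left out. Among other list genes 1 passed with array weights, Dusp4. Fos kept its sign over 17 alternatives, from -1.92 to -0.58, as did Jun (-1.36 to -0.22) and Dusp1 (-1.56 to -0.12). Fosb and Ier2 were kept in 13 alternatives and stayed lower. For Fosb, kept through the Flvcr+/+ arrays alone, the filter had set that sign, and nothing is read from it. Sign changes were seen for Junb (-1.09 to 0.10 with 1 array left out), Zfp36 (-0.19 to 0.014), Egr1 (-0.045 to 0.11) and Jund (-0.071 to 0.26, and -0.11 with array weights). The Xist pattern as a covariate left every member on the same side of the threshold. Scaling to a common median moved the median of all kept probes to 0.02. Signals near background limit Fosb, Ier2 and Nr4a1.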
